A study of Mus musculus with 6 samples.

Results

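The 9 genes described here encode subunits of the Polycomb repressive complexes and histone demethylases: *Jarid2*, *Ezh2*, *Eed*, *Suz12*, *Mtf2*, *Phc1*, *Kdm3a*, *Kdm4c* and *Kdm2b*. All regions bound by OCT4 or NANOG within 20 kb of the body of one of these genes were taken, which gave 43 of the 23767 distinct regions in 6 peak lists. ChIP-Seq for OCT4 and for NANOG was done in E-GFPd1 mouse ESCs, E14Tg2a cells in which the Esrrb-2a-GFPd-IBIH allele reports *Esrrb* transcription through a destabilised GFP. Cells were cultured in serum and LIF, fixed, and sorted into fractions called Esrrb-GFP high (the brightest 10% of cells), Esrrb-GFP medium (a gate of 15% adjoining the negative cells) and Esrrb-GFP negative. The negative fraction is called Esrrb-low in one of the sample labels. All groups carry the reporter and come from a single reporter line.

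Each list represents 1 library of 1 factor in 1 fraction, made from pooled ChIPs of several sorts. No spread between replicates can therefore be given and no p-value was computed. The lists give positions only, so the read depth and the strength of binding at a region are unknown. A region is called lost when it is in the list of one fraction and not in that of another, under the authors' rule that 50% of its highest depth-normalized signal must be retained. An absence may thus also be a region close to that limit, and binding in fewer cells cannot be told apart from weaker binding in each cell. Bound, held, kept and absent refer throughout to presence in a list, not to measured signal. Each share has its 95% Wilson interval, for counting error over regions alone, and stands beside the same share over all regions of the list.

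By way of background, Polycomb repressive complex PRC2 methylates lysine 27 of histone H3 through its catalytic subunit EZH2, which requires EED and SUZ12. JARID2 and MTF2 are accessory subunits that help to bring PRC2 to CpG-rich chromatin. PHC1 is a subunit of PRC1, the complex that ubiquitinates histone H2A and compacts chromatin, and KDM2B is a CpG-binding demethylase of histone H3 lysine 36 that recruits a PRC1 variant. KDM3A and KDM4C remove methylation from histone H3 lysine 9, a mark of silent chromatin. In ESCs, Polycomb proteins hold developmental genes in a silent but inducible state.

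In Esrrb-GFP high cells, 12 of the 43 regions held OCT4 and NANOG together, and these are grouped by what was left in Esrrb-GFP negative cells. Class I regions lost both OCT4 and NANOG, and Class II regions lost NANOG and kept OCT4. Regions are numbered along each gene from its 5′ end, and positions are on mm9, counted from 1. Sequences are the plus strand of the mm9 genome in lower case, 5′ to 3′. Capitals mark a match on either strand to the octamer ATGCAAAT (exact), to the Oct-Sox composite (up to 2 mismatches) or to the ESRRB motif TCAAGGTCA (up to 1 mismatch). The following are 3 of the 4 Class I regions, shown whole because they are the co-bound regions from which OCT4 was lost.
Eed region 3, chr7:97124192-97124431: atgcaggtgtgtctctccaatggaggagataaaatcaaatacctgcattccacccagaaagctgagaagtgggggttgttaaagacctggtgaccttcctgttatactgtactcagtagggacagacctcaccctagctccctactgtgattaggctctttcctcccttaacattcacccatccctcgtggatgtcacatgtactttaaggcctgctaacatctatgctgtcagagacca
Mtf2 region 5, chr5:108506052-108506291: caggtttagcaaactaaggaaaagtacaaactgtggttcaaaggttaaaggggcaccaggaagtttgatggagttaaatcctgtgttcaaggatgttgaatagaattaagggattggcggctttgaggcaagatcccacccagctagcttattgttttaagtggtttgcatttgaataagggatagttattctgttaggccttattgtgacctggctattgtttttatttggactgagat
Kdm3a region 1, chr6:71576052-71576291: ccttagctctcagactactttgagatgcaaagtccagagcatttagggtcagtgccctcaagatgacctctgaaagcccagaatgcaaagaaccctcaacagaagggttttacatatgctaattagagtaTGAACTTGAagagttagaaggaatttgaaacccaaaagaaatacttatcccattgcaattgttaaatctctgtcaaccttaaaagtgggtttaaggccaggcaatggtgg

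Of these, *Kdm3a* region 1 holds an ESRRB match, on the minus strand, as does *Jarid2* region 5, the Class I region not printed. The *Jarid2* match is not whole within 100 bp of the centre of its region. Within that window 1 of 4 Class I regions held a match, 25.0% (4.56 to 69.9), against 18.4% of all Class I regions. None of the 4 holds an exact octamer. Class II regions kept OCT4 in Esrrb-GFP negative cells. Regions of *Eed* and *Jarid2* are shown whole, and the central 300 bp are shown for the wider regions of *Phc1* and *Kdm2b*.
Eed region 1, chr7:97146172-97146271: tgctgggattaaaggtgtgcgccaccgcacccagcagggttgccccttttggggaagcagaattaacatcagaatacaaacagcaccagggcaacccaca
Jarid2 region 8, chr13:44847252-44847351: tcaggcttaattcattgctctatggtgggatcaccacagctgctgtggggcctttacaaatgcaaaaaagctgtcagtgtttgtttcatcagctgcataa
Phc1 region 1 (centre), chr6:122292312-122292611: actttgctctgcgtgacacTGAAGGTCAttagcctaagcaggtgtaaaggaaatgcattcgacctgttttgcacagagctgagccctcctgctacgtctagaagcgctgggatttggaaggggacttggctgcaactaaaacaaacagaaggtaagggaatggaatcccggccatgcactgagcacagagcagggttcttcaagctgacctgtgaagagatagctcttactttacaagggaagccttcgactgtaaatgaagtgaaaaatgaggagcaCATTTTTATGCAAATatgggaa
Phc1 region 2 (centre), chr6:122291022-122291321: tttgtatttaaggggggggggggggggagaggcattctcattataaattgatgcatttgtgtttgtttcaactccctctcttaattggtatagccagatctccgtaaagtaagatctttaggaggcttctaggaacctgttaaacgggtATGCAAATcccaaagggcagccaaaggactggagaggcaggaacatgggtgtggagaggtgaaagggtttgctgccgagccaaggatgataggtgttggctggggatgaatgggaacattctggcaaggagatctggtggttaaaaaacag
Kdm2b region 4 (centre), chr5:123441322-123441621: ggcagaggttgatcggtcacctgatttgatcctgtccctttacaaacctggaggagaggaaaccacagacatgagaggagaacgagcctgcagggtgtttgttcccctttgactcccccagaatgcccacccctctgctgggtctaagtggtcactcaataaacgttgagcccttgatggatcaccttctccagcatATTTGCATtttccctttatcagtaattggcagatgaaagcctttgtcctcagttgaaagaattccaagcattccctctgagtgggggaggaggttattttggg

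*Phc1* region 1 carries an octamer inside an Oct-Sox match with 1 mismatch, and an ESRRB match. *Phc1* region 2 and *Kdm2b* region 4 each carry an exact octamer, the latter on the minus strand. *Phc1* region 2 also has an ESRRB match, outside the part printed. The Oct-Sox composite ends in the octamer, so the 2 searches overlap. A match describes letters and does not show that a factor contacts them.

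**Figure D1:**
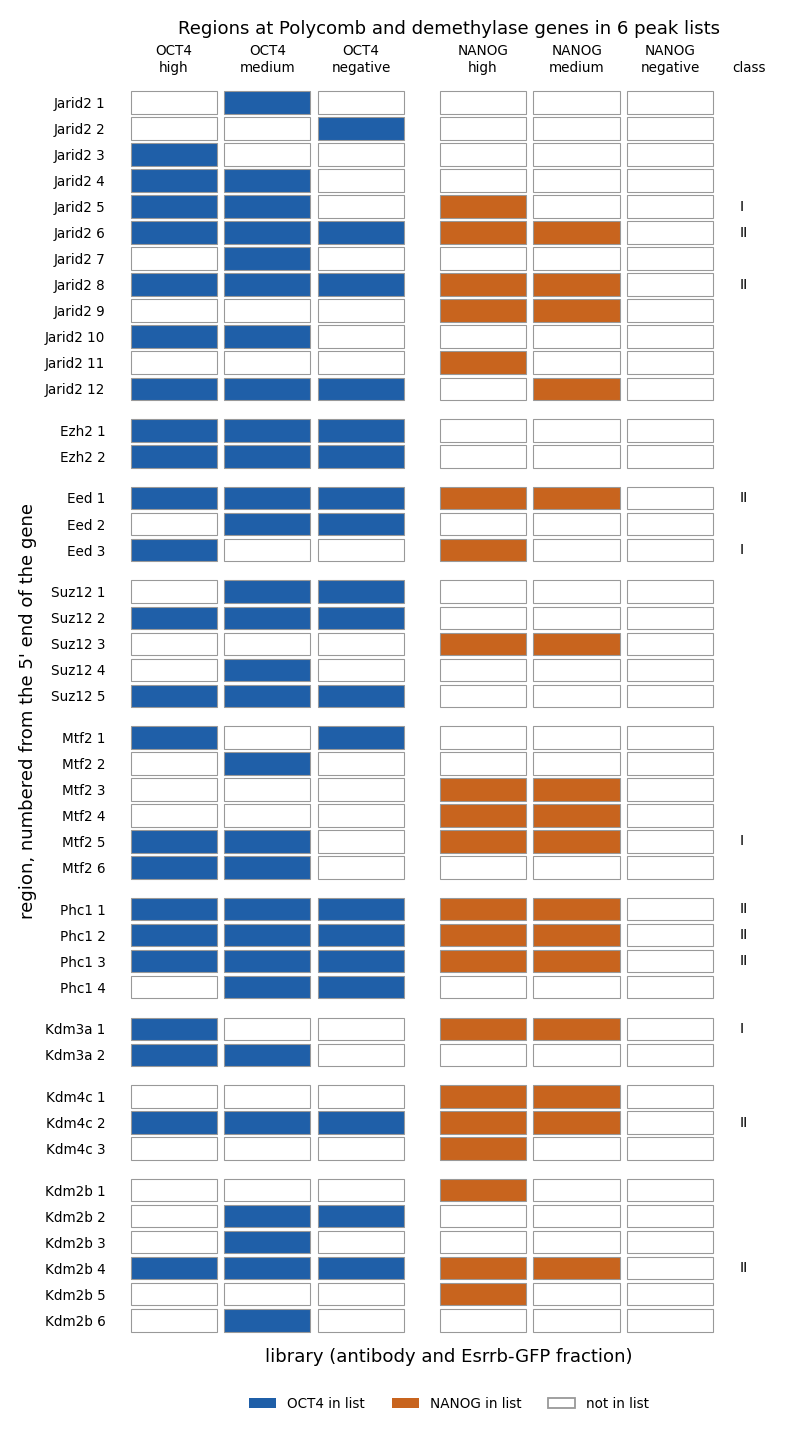
Presence of each of the 43 regions (rows, numbered from the 5′ end of each gene) in the OCT4 (blue) and NANOG (orange) lists of Esrrb-GFP high, medium and negative cells (columns). White cells are absences, and the last column marks the 4 Class I and 8 Class II regions. The NANOG negative column is empty for all 9 genes.

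Across the 9 genes, the OCT4 lists held 23 regions for Esrrb-GFP high cells, 29 for medium and 19 for negative cells, and the NANOG lists held 21, 16 and 0. All 6 lists together hold 12449, 14464 and 10369 regions for OCT4 and 9425, 4729 and 286 for NANOG. None of the 9 genes thus had a region in the NANOG list of Esrrb-GFP negative cells, while 8 of them had one in the OCT4 list. In negative cells, 21 of the 21 NANOG regions of high cells were lost, 100% (84.5 to 100), against 97.5% over all NANOG regions, so that the members were close to the background. Of the 23 OCT4 regions, 9 were lost in Esrrb-GFP negative cells, 39.1% (22.2 to 59.2), against 45.1% over all OCT4 regions.

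Esrrb-GFP medium cells had lost less. OCT4 was lost there at 4 of 23 regions, 17.4% (6.98 to 37.1), against 21.3% over all regions. NANOG was lost at 6 of 21 regions, 28.6% (13.8 to 50), and 15 were kept, whereas 52.3% of all NANOG regions were lost between these fractions. The 6 NANOG regions lost in medium were *Jarid2* regions 5 and 11, *Eed* region 3, *Kdm4c* region 3 and *Kdm2b* regions 1 and 5. OCT4 regions not called in Esrrb-GFP high cells numbered 10 of 29 in medium cells, 34.5% (19.9 to 52.7), against 32.3% over all regions, and 5 of 19 in negative cells, 26.3% (11.8 to 48.8), against 34.1%. The 5 in negative cells were *Jarid2* region 2, *Eed* region 2, *Suz12* region 1, *Phc1* region 4 and *Kdm2b* region 2, and all but the *Jarid2* region were also bound in medium cells. In the paper's average profiles, the 3532 such regions of negative cells over the genome had some OCT4 signal in high cells too. From medium to negative cells, 12 of 29 OCT4 regions were lost, 41.4% (25.5 to 59.3), against 44.1% over all.

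In high cells, 12 of the 23 OCT4 regions also held NANOG, 52.2% (33.0 to 70.8), against 29.5% over all OCT4 regions. The same 12 regions are 57.1% (36.5 to 75.5) of the 21 NANOG regions, against 39.0% over all NANOG regions. Of the 12, 4 were Class I, 33.3% (13.8 to 60.9), against 55.3% of all co-bound regions, and 8 were Class II, 66.7% (39.1 to 86.2), against 42.6%. Both intervals hold the background value. In Esrrb-GFP medium cells NANOG was still bound at 8 of 8 Class II regions, 100% (67.6 to 100), against 55.6% of all Class II regions. Among the 4 Class I regions, OCT4 was kept in medium cells at *Jarid2* region 5 and *Mtf2* region 5, 2 of 4 against 76.6% over all Class I regions. NANOG was kept there at *Mtf2* region 5 and *Kdm3a* region 1, 2 of 4 against 52.5%. The 4 Class I regions thus had 4 different medium states, with both factors at *Mtf2*, OCT4 alone at *Jarid2*, NANOG alone at *Kdm3a* and neither at *Eed*. The 11 OCT4 regions of high cells without NANOG lost OCT4 in negative cells at 5 regions, 45.5% (21.3 to 72.0), against 40.6% over all such regions.

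**Figure D2:**
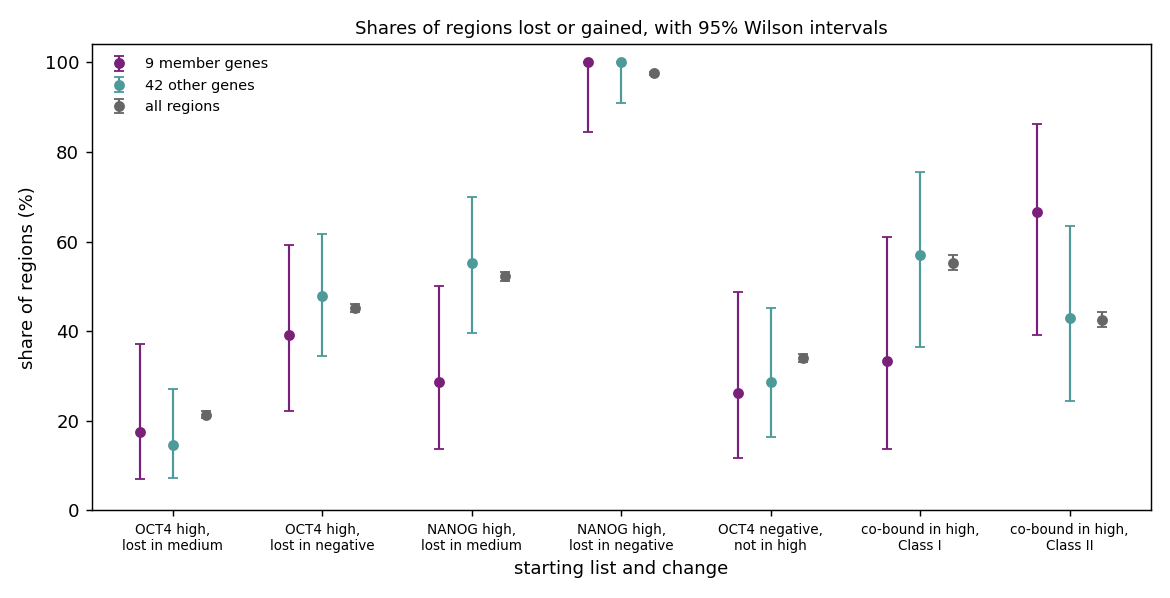
Share of regions (vertical axis, %) that were lost, gained or of a class, for the 9 genes (purple), 42 other Polycomb and demethylase genes (teal) and all regions (grey). Bars are 95% Wilson intervals, which cover counting error only. For NANOG lost in medium the values were 28.6%, 55.3% and 52.3%, and for Class II they were 66.7%, 42.9% and 42.6%.

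*Jarid2*, the accessory subunit with a JmjC domain, had the most regions. It spans chr13:44824843-45017012 on the plus strand (192 kb), and 12 regions lay within 20 kb. As many or more were found at 0.246% of coding genes. This was 5.17 regions per 100 kb of window, a rate that 4.89% of coding genes equalled or passed. In high, medium and negative cells, OCT4 was bound at 7, 8 and 4 regions and NANOG at 5, 4 and 0.

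The regions of *Jarid2* had 9 different combinations of lists among 12 regions, a number that cannot exceed that of the regions. There were 5 among 6 regions at *Mtf2*, 4 among 5 at *Suz12* and 4 among 6 at *Kdm2b*. *Eed* and *Kdm4c* each had 3 among 3, *Kdm3a* 2 among 2, *Phc1* 2 among 4 and *Ezh2* 1 among 2. Upstream of the gene, region 1 (chr13:44806592-44806631) was bound by OCT4 in medium cells only, region 2 (chr13:44807452-44807651) in negative cells only and region 3 (chr13:44810772-44810851) in high cells only. Region 4 (chr13:44814032-44814071) held OCT4 in the high and medium fractions. None of these was bound by NANOG. Region 5 (chr13:44817552-44817811), 7162 bp upstream of the start, was Class I and lost NANOG already in medium cells. Region 6 (chr13:44823952-44824191), 772 bp upstream, was Class II. A Class I and a Class II region thus lay on the same side of the *Jarid2* start.

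Intron 1 of *Jarid2* held 5 regions. Region 7 (chr13:44827492-44827571) was bound by OCT4 in medium cells only and region 8 (chr13:44847252-44847351) was Class II. Region 9 (chr13:44851012-44851071) had NANOG in high and medium cells and no OCT4, region 10 (chr13:44854092-44854231) had OCT4 in high and medium cells, and region 11 (chr13:44864292-44864511) had NANOG in high cells only. Region 12, in intron 3, was bound by OCT4 in all 3 fractions and by NANOG in medium cells only. That combination was found at 27 of the 23767 regions, 0.114%, and its 60 bp are shown for this reason.
Jarid2 region 12, chr13:44946972-44947031: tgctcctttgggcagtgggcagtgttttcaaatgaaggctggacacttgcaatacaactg

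*Mtf2*, the Polycomb-like accessory subunit, spans chr5:108494693-108538023 on the plus strand and had 6 regions, 7.20 per 100 kb, the highest rate of the 9 genes. A rate as high was found at 2.42% of coding genes. OCT4 was bound at 3, 3 and 1 regions in high, medium and negative cells, and NANOG at 3, 3 and 0. The NANOG regions lay together in intron 1 within 1 kb, as region 3 (chr5:108505372-108505431), region 4 (chr5:108505912-108505951) and the Class I region 5 (chr5:108506052-108506291). OCT4 was present at region 5 alone of these. Region 1 (chr5:108481412-108481471), upstream, was in the OCT4 lists of high and negative cells but not medium, and is the one region of the 9 genes with that combination, which 6.12% of all OCT4 regions had. Region 2 (chr5:108495192-108495251), 528 bp inside the gene, was bound by OCT4 in medium cells only, and region 6 (chr5:108526732-108526911), in intron 9, in high and medium cells.

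Together the PRC2 accessory genes had 18 regions, and of their 10 OCT4 regions of Esrrb-GFP high cells 6 were lost in negative cells. The core PRC2 genes had 10 regions, and 1 of their 6 OCT4 regions of high cells was lost. At the other genes this was 0 of 3 for *Phc1*, 2 of 3 for *Kdm3a* and *Kdm4c* together and 0 of 1 for *Kdm2b*. Over all OCT4 regions of high cells 45.1% were lost. No difference between these groups was tested, since regions of 1 gene are not replicates and the counts are small.

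*Ezh2*, the methyltransferase, spans chr6:47480273-47545340 on the minus strand and had 2 regions, both upstream, at chr6:47558432-47558531 and chr6:47552052-47552151. OCT4 was bound at both in all 3 fractions and NANOG at neither in any fraction. *Ezh2* was the one gene of the 9 without NANOG in any list, and its 1.90 regions per 100 kb were equalled or passed by 27.5% of coding genes.

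*Eed*, the subunit that reads the methyl mark, spans chr7:97103166-97129493 on the minus strand and had 3 regions with 3 different fates. Region 1 (chr7:97146172-97146271), 16728 bp upstream, was Class II. Region 2 (chr7:97133212-97133271) held OCT4 in the medium and negative fractions only. Region 3 (chr7:97124192-97124431), in intron 2, was Class I with both factors in high cells alone. *Eed* thus had OCT4 at 2 regions in each fraction, although the regions differed.

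*Suz12*, the scaffold of PRC2, spans chr11:79806608-79847625 on the plus strand, and its 5 regions all lay upstream, between chr11:79789852 and chr11:79794431. Regions 2 (chr11:79790512-79790931) and 5 (chr11:79794232-79794431) were bound by OCT4 in all 3 fractions. Region 1 held OCT4 in the medium and negative fractions and region 4 (chr11:79793932-79794051) in medium cells only. NANOG was bound at region 3 alone (chr11:79793292-79793371), in high and medium cells and without OCT4. No region of *Suz12* was co-bound, and none of its OCT4 regions of high cells was lost. The gene closest to regions 1 and 2 was *Utp6*, at 13960 and 14620 bp, so these regions are not assigned to *Suz12* by distance.

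*Phc1*, the PRC1 subunit, spans chr6:122267749-122290579 on the minus strand and had 4 regions, whose centres lay within 1882 bp of its start. Region 1 (chr6:122292212-122292711), region 2 (chr6:122290912-122291431) and region 3 (chr6:122290512-122290851) were all Class II, with OCT4 in the 3 fractions and NANOG in high and medium cells. Region 3 overlaps the start of the gene. Region 4 (chr6:122290092-122290131), in intron 1, held OCT4 in the medium and negative fractions. No region of *Phc1* lost OCT4. Its 3 Class II regions are neighbours, and they make up 3 of the 8 Class II regions of the 9 genes. The rate of 6.37 regions per 100 kb was equalled or passed by 3.41% of coding genes.

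*Kdm3a*, an H3 lysine 9 demethylase, spans chr6:71538968-71582899 on the minus strand and had 2 regions, both within introns. Region 1 (chr6:71576052-71576291), in intron 3, was Class I: OCT4 was bound in high cells only and NANOG in high and medium cells. Region 2 (chr6:71559092-71559331), in intron 11, held OCT4 in the high and medium fractions and lies 170 bp from the start of a shorter coding transcript. *Kdm3a* was the one gene of the 9 without a region in either list of Esrrb-GFP negative cells.

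*Kdm4c*, also an H3 lysine 9 demethylase, spans chr4:73888401-74051764 on the plus strand and had 3 regions. Region 2 (chr4:73905372-73905531), in intron 1, was Class II and held OCT4 in all 3 fractions. Region 1 (chr4:73903912-73903971), in the same intron, had NANOG in high and medium cells, and region 3 (chr4:74052892-74053031), 1128 bp downstream of the gene, had NANOG in high cells only, both without OCT4. *Kdm4c* had 1.48 regions per 100 kb, the lowest rate of the 9, which 34.0% of coding genes equalled or passed.

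*Kdm2b*, the demethylase that brings PRC1 to CpG islands, spans chr5:123320677-123465089 on the minus strand and had 6 regions. Region 4 (chr5:123441312-123441631) was its one co-bound region and was Class II. OCT4 was bound at region 2 (chr5:123452672-123452731) in medium and negative cells and at regions 3 (chr5:123445032-123445211) and 6 (chr5:123340532-123340631) in medium cells only, so that OCT4 had 1, 4 and 2 regions in high, medium and negative cells. NANOG was bound without OCT4 at regions 1 (chr5:123459832-123459891) and 5 (chr5:123357352-123357471), in high cells only. Regions 1 to 4 lie in introns of other transcripts and outside the coding transcript of longest span. Regions 3 and 4 also overlap the gene *A930024E05Rik*. The lists carry no strand and cannot assign a region to one of these genes.

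**Figure D3:**
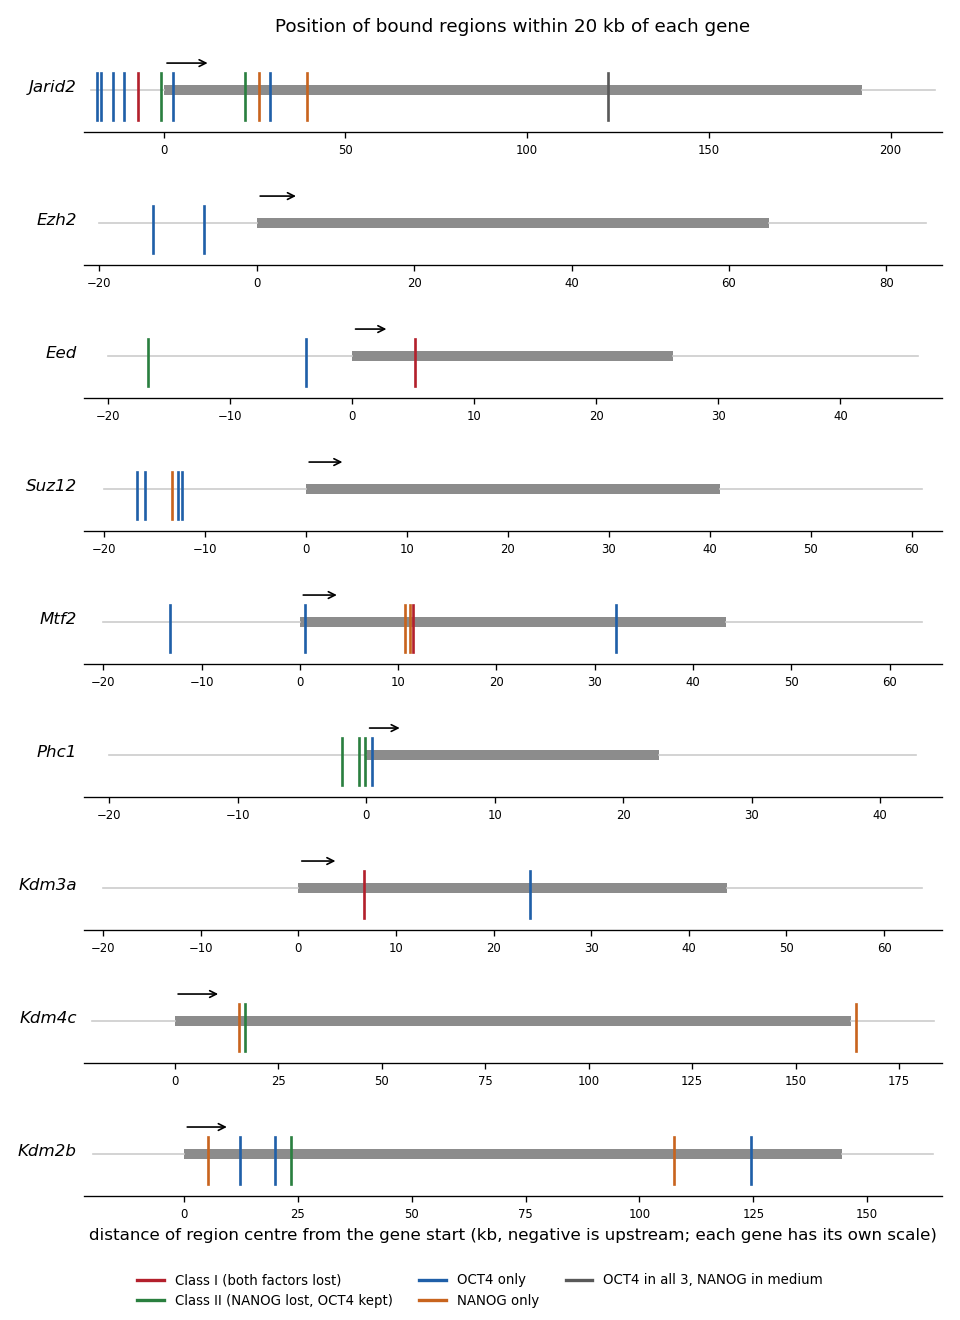
Centre of each region relative to the gene start (horizontal axis, kb, each gene on its own scale), with the gene body as a thick bar and the arrow in the direction of transcription. The 8 Class II regions are green and the 4 Class I regions red. The *Suz12* regions are all upstream, and those of *Phc1* lie within 1.88 kb of its start.

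By position, taken at the centre of a region, 19 regions were upstream of the gene, 23 in introns and 1 downstream. Of those in introns, 4 were in *Kdm2b* transcripts other than the coding one of longest span. Within 1 kb of a transcription start were 7 of 43 centres, 16.3% (8.12 to 30.0), against 8.90% of all regions. These were *Jarid2* regions 6 and 7, *Mtf2* region 2, *Phc1* regions 2, 3 and 4 and *Kdm3a* region 2. Another region lay within 1 kb at 14 of 43, 32.6% (20.5 to 47.5), against 22.8%. Median width was 100 bp at these genes and 80 bp over all regions, and the Class II regions 280 bp against 180 bp. Those of at least 200 bp numbered 14 of 43, 32.6% (20.5 to 47.5), against 16.4%. Since the widths are those of peaks merged over libraries, they depend in part on how many lists hold a region. The median GC content within 100 bp of the centre was 47.8% against 48.3%.

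The region nearest to the 20 kb limit on its outer side lay 20158 bp downstream of *Phc1*, where OCT4 was bound in medium cells only (chr6:122247532-122247591). The gene closest to that region was *M6pr*. The outermost region taken was *Jarid2* region 1, 18212 bp from the gene.

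An exact octamer was found within 100 bp of the centre at 3 of 43 regions, *Mtf2* region 4, *Phc1* region 2 and *Kdm2b* region 4, 6.98% (2.40 to 18.6) against 7.88% of all regions. With 1 mismatch allowed it was found at 20, 46.5% (32.5 to 61.1) against 39.0%, and at 8 of the 12 co-bound regions, 66.7% (39.1 to 86.2) against 45.5%. The Oct-Sox composite was found in this window at 0 of 43 regions, which allows up to 8.20%, against 6.81% of all regions. The match in *Phc1* region 1 lies outside the window. Within it, an ESRRB match was found at 7 of 43 regions, 16.3% (8.12 to 30.0) against 11.2%. These were *Jarid2* regions 7 and 11, both *Ezh2* regions, *Eed* region 1, *Suz12* region 2 and *Kdm3a* region 1. The ESRRB matches of *Jarid2* region 5 and *Phc1* regions 1 and 2 are not whole within the window. Conversely, those of *Ezh2* region 2 and *Eed* region 1 are in the window but not whole within the called region. The same holds for the octamer of *Mtf2* region 4. All of these shares include the background value in their intervals.

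Some sequence features were looked for after the sequences had been seen. Within the same window, dinucleotide runs of at least 20 bp were present at *Jarid2* region 10 and *Suz12* region 4, 2 of 43 regions or 4.65% (1.28 to 15.5), against 4.78% of all regions. The search asked that each base equal the base 2 before it, so runs of a single base count as well. Among regions bound by OCT4 in medium cells only, 1 of 6 at the 9 genes held such a run, *Suz12* region 4. This was 16.7% (3.01 to 56.4), against 11.2% over all such regions. *Jarid2* region 10 and *Suz12* region 4 are shown because no others at the 9 genes held such runs.
Jarid2 region 10, chr13:44854092-44854231: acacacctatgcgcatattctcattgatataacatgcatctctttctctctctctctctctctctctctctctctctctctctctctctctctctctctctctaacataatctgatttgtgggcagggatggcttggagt
Suz12 region 4, chr11:79793932-79794051: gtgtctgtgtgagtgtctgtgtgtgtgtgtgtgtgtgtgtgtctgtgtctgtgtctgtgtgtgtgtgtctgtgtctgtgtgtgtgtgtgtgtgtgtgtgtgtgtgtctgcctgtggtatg

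*Ezh2* region 2, *Eed* region 1 and *Suz12* region 2 shared the stretch cctttaatcccagca, on either strand, and 63 of all 23767 regions, 0.265%, held it in their own interval. These 15 bases are familiar from the B1 family of short interspersed repeats of the mouse. No repeat annotation was used here. OCT4 was bound in all 3 fractions at each of the 3 regions. Of the regions with OCT4 in any fraction, 13 of 34 among the members held it in all 3, 38.2%, against 31.3% over all regions. For the 63 regions that hold the stretch, this share was not determined. The part that repeats play in the OCT4 calls at the 3 regions was not tested. Beside *Eed* region 1, shown above, *Ezh2* region 2 is printed as an example that holds the stretch.
Ezh2 region 2, chr6:47552052-47552151: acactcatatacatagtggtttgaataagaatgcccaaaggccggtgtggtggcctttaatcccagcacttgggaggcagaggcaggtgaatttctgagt

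At the level of genes, the choice of the 9 was made with results of these data known, and the counts are a description. A region of any list lay within 20 kb of 9 of the 9 genes, against 46.4% of all 22380 coding genes. OCT4 was bound at 9, 9 and 8 of the genes in the high, medium and negative fractions, against 31.5%, 36.2% and 28.4%. NANOG was bound at 8 in high and 8 in medium cells, against 23.3% and 14.6%, and at 0 in negative cells, against 0.961%. A Class I region lay at 4 genes (*Jarid2*, *Eed*, *Mtf2* and *Kdm3a*), against 6.97%, and a Class II region at 5 (*Jarid2*, *Eed*, *Phc1*, *Kdm4c* and *Kdm2b*), against 5.02%. *Jarid2* and *Eed* had both classes. The 9 genes are longer than most, with a median length of 43.9 kb against 15.4 kb, and longer genes have wider windows. Per 100 kb of window they had 3.90 regions, against 1.19 for all coding genes.

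A list of 42 other Polycomb and histone demethylase genes, all of which were found in the annotation, was examined in the same way. Of these, 33 had a region of any list within 20 kb, and 80 regions were counted, each once. OCT4 was bound at 26, 28 and 25 of the 42 genes in high, medium and negative cells, 61.9%, 66.7% and 59.5%, against 31.5%, 36.2% and 28.4% of coding genes. NANOG was bound at 18, 12 and 0, 42.9%, 28.6% and 0%, against 23.3%, 14.6% and 0.961%. Class I regions lay at 9 of the genes, 21.4% against 6.97%, and Class II regions at 8, 19.0% against 5.02%. These counts by gene are not adjusted for gene length. Of 48 OCT4 regions of Esrrb-GFP high cells, 23 were lost in negative cells, 47.9% (34.5 to 61.7), and of 38 NANOG regions 38 were lost, 100% (90.8 to 100). In medium cells 21 of the 38 NANOG regions were lost, 55.3% (39.7 to 69.9). Of 21 co-bound regions, 12 were Class I, 57.1% (36.5 to 75.5), and 9 were Class II, 42.9% (24.5 to 63.5). These shares of regions lie near those over all regions given above.

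The 8 genes of that list with most regions in high cells were *Aebp2*, *Bcor*, *Cbx7*, *Jmjd1c*, *Kdm3b*, *Scmh1*, *Rybp* and *Kdm5b*. *Cbx7*, the chromodomain subunit of PRC1 in ESCs, had OCT4 at 6, 7 and 2 regions in high, medium and negative cells, and NANOG at 3, 3 and 0, with 2 Class I regions and 1 Class II region. *Bcor*, of the PRC1 variant that contains KDM2B, had OCT4 at 6, 5 and 4 regions and NANOG at 2, 1 and 0, with 1 region of each class. *Jmjd1c*, a relative of *Kdm3a*, had OCT4 at 4, 6 and 2 regions and NANOG at 3, 2 and 0, also with 1 region of each class. *Kdm3b*, another relative of *Kdm3a*, had OCT4 at 3, 3 and 1 regions and NANOG at 4, 3 and 0, with 2 Class I regions. *Aebp2*, a PRC2 accessory subunit, had OCT4 at 4, 4 and 1 regions and NANOG at 3, 1 and 0, with 1 Class I region. *Rybp*, a PRC1 variant subunit, had OCT4 at 1, 2 and 2 regions and NANOG at 4, 1 and 0, with 1 Class I region. *Scmh1*, a Polycomb protein, had OCT4 at 2, 3 and 3 regions and NANOG at 3, 0 and 0, with no region of either class. *Kdm5b*, an H3 lysine 4 demethylase, had OCT4 at 2, 2 and 1 regions and NANOG at 2, 1 and 0, with 1 Class I region.

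**Figure D4:**
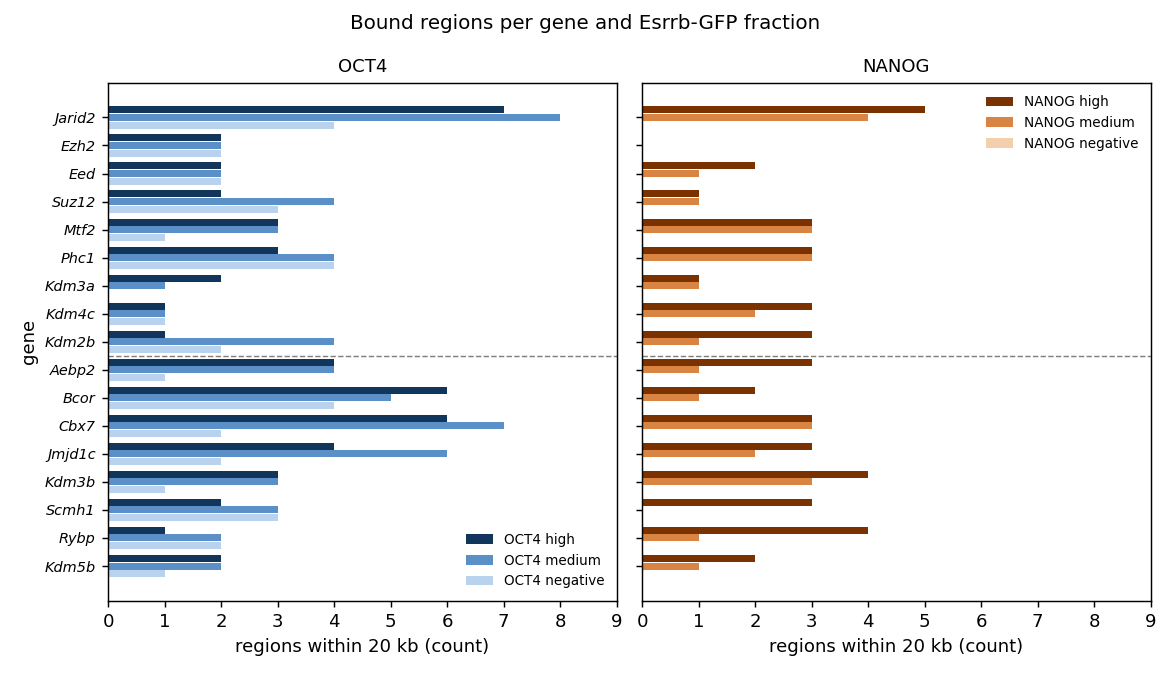
Number of regions within 20 kb of each gene (horizontal axis, count) in the OCT4 (left) and NANOG (right) lists, with a bar for each Esrrb-GFP fraction. The 9 genes are above the dashed line, and 8 genes of the wider list are below it. *Jarid2* has the most OCT4 regions in medium cells, 8, and no gene has a NANOG region in negative cells.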

How the data were processed

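OCT4 and NANOG ChIP-Seq peak lists from 3 Esrrb-GFP fractions were examined, 1 library per factor and fraction, grouped by the antibody and sorted fraction in the labels. The authors processed the reads in GeneProf (Bowtie alignment to mm9, per the labels) and identified peaks with SISSRs. Overlapping peaks were then merged across datasets, and a merged region stayed in a fraction if its depth-normalized signal there reached 50% of the highest. The deposited lists hold chromosome, start and end, with no count, score or signal, and depth per library is unknown.

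Distinct intervals of the 6 lists (51722 entries, 23767 intervals, none overlapping another) were assigned to every gene of the GENCODE annotation of mm9 (37310 genes, 22380 coding) whose body lay within 20 kb. Where a symbol had several entries the longest was kept. A region was bound in a list when it overlapped an entry by 1 bp. Motifs were scanned on both strands within 100 bp of region centres. Shares have 95% Wilson intervals and no test between fractions was made. The members and the list of 42 other genes were chosen with earlier results of these data known. Named are all 9 members with every region within 20 kb, and the 8 genes of the wider list with most regions bound in high cells. The gene closest to a region is also named where it was not the member. Alternatives were other distances, the closest gene only, coding transcripts only, wider regions only, merging within 500 bp, an overlap of 50%, and other motif windows and limits. Python 3.11.15, numpy 2.4.6, scipy 1.17.1, pysam 0.24.0 and matplotlib 3.10.9 were used, and the functions were tested on simulated data.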

Additional observations from a re-analysis of the deposited data

How the results depend on the processing

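Of 75 values under alternatives, 65 moved by less than their interval or stayed within 1.5 times, and 10 moved further. When regions below the median width of a list were left out, 26 regions remained at the 9 genes in place of 43. The share of OCT4 regions of negative cells not called in high cells was then 7.69% (1 of 13, 1.37 to 33.3) in place of 26.3%. Over all regions that share was 38.0% in place of 34.1%. In the same setting the share of NANOG regions lost in medium cells was 46.7% (7 of 15, 24.8 to 69.9), against 56.4% over all regions. Of those 7, *Jarid2* region 8 and *Eed* region 1 are in the whole medium list and count as lost only because they are narrower than its own median width of 120 bp. The width limit was also set on the starting list only, chosen after seeing the data. The NANOG share was then 33.3% (5 of 15), against 48.2% over all regions. That for OCT4 regions of negative cells was again 7.69%, against 24.8% over all regions. Within 5 kb of a transcription start lay 18 regions, in place of 7 within 1 kb. With motif windows of 250 bp either side, the octamer was found at 6, Oct-Sox at 1 and ESRRB at 13 regions, in place of 3, 0 and 7. With other mismatch limits the octamer was found at 20 (1 mismatch) and ESRRB at 0 (exact). An alternative chosen after seeing the data was Oct-Sox without its last base and with any base between its Sox and octamer parts. It was found at 3 of 43 regions, 6.98% (2.40 to 18.6), against 17.7% of all regions. Beyond what each window or limit sets by itself, the cause of these shifts was not tested. No paired analysis was possible because each factor and fraction is represented by a single library. The unknown depth limits every absence.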

Other observations

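Between 20 and 50 kb of the 9 genes lay a further 13 regions, which the comparisons do not use, and none was bound by NANOG in Esrrb-GFP negative cells. *Jarid2* had 4 of them, all upstream. One was a Class I region (chr13:44774772-44775071) with OCT4 and NANOG in high and medium cells, and one was a Class II region (chr13:44800672-44801171) with OCT4 in all 3 fractions and NANOG in high and medium cells. *Eed* had 3, bound by OCT4 alone, and *Mtf2* had 2, bound by NANOG alone. *Phc1* had 4, among them a region at chr6:122316392-122316731 with NANOG in high and medium cells and OCT4 in medium and negative cells. The gene closest to that region, and to the one at chr6:122316032-122316111, was *1700063H04Rik*. For chr6:122247532-122247591 it was *M6pr*, so these regions are not assigned to *Phc1* by distance. *Ezh2*, *Suz12*, *Kdm3a*, *Kdm4c* and *Kdm2b* had 0.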
